A study of Mus musculus with 5 samples.

Results

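The genes described here were 50 genes of complement and coagulation, the protease cascades of blood plasma, together with their receptors, inhibitors and regulators. The list was chosen by measured values: it was drawn around the decreases of the prothrombin gene F2 and the complement receptor gene C5ar1 on the arrays described below, so those 2 genes are given as values with no test. Of the 50 genes, 46 had at least 1 probe with their symbol, 71 probes in all among the 44290 features. A further 4 genes (C3, Cfd, F2rl1 and Serpine2) had no probe matched by symbol and were not analysed here. Of the 46, 43 were measured on at least 3 arrays and were tested within a fit over 28035 genes and unnamed features, 23 of them on all 5 arrays, 9 on 4 and 11 on 3.

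The arrays compared male CD1 mouse pups at postnatal day 3 (P3) whose mothers had received cocaine or saline. Dams were given 20 mg/kg cocaine in each of 2 daily injections from gestational day 8 to day 19, control dams were given saline and were pair-fed, and all litters were raised by foster mothers. RNA came from the pyramidal layer of the hippocampus, the sheet of excitatory principal neurons, cut out by laser. For gene expression the labels give the right hemisphere of 1 of 2 male pups from a litter. Each of 5 dual-colour oligonucleotide arrays held a cocaine sample in the longer-wavelength Alexa dye and a saline sample in the shorter-wavelength one, always in the same orientation, so a dye effect on a probe and an effect of the drug cannot be told apart. The labels do not tie the arrays to litters, and p-values here reflect the array-to-array spread, which may be technical.

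Blood coagulation proceeds through serine proteases that activate one another until thrombin, cut from prothrombin, turns fibrinogen into fibrin. Plasmin dissolves fibrin again, and antithrombin, the protein C and protein S pathway and tissue factor pathway inhibitor restrain the cascade. Thrombin also signals to cells by cutting protease-activated receptors. Complement is a related cascade in which C1, lectin-bound proteases or factor B lead to the cleavage of C3 and C5, whose small fragments act on receptors of myeloid cells, while the late components form a pore in the target membrane. Most plasma forms of these proteins are made by hepatocytes. In brain, complement is known for tagging synapses that microglia remove during development.

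Promoter sequences are shown for the pair of genes that chose the list, F2 and C5ar1, and for Pros1, the gene with the highest mean ratio among the 43. Each is the 300-base window at the gene start in RefSeq (build GRCm38.p6), written 5′ to 3′ in the direction of the gene, with every CG dinucleotide, the substrate of DNA methylation, in capitals. The F2 window is chr2:91636408-91636707, minus strand, with 4 CG. The C5ar1 window is chr7:16259289-16259588, minus strand, with 3 CG. The Pros1 window is chr16:62854057-62854356, plus strand, with 21 CG.
F2: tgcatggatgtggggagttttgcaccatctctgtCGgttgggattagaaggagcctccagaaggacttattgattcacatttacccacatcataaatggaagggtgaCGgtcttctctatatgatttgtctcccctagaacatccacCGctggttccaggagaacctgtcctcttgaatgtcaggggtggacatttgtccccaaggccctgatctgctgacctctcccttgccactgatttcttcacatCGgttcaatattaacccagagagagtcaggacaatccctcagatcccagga
C5ar1: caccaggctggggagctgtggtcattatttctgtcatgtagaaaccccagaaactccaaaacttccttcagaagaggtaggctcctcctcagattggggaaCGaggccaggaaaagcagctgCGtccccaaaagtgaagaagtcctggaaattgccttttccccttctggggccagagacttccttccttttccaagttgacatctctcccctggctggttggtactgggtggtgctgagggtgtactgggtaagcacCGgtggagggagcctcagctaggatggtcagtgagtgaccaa
Pros1: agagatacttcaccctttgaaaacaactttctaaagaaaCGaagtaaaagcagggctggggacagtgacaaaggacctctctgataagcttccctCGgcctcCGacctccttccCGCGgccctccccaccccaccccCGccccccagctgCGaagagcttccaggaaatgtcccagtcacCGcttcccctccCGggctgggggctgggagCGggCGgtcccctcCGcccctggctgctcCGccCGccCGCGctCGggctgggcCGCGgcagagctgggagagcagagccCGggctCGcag

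The F2 and C5ar1 windows were poor in CG, and the Pros1 window was rich in it. These genes were picked by their ratios, and a link between CG content and ratio was not tested. The table of promoters held 39 windows for 37 of the 50 genes, with a median of 5 CG per window against 13 over 21263 windows of protein-coding genes. A window with 5 or fewer CG was found for 26 of the 39 (66.7%), against 32.3% of protein-coding windows. The range ran from 0 CG in the window of F2rl3 (a thrombin receptor gene) to 41 in that of Serpine2 (protease nexin-1). The letters TATAAA, searched on both strands, occurred in 5 of the 39 windows (12.8%) against 12.6% of protein-coding windows. Among the tested genes that had a window, the median of the mean log2 ratio was -0.59 over 21 genes with 5 or fewer CG and -0.54 over 10 genes with more. The 21 include F2 and C5ar1, which chose the list, so nothing is read from these medians. The counts of CG describe sequence, and no methylation value was measured on these arrays.

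**Figure D1:**
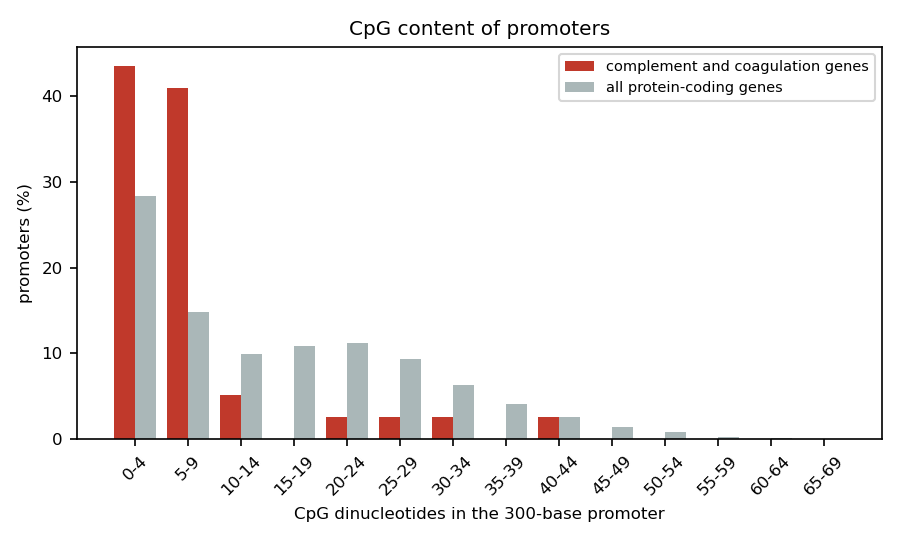
CpG content of promoters. Bars give the percent of 300-base promoter windows (vertical axis) by their number of CG dinucleotides (horizontal axis), for 39 windows of complement and coagulation genes (red) and 21263 windows of all protein-coding genes (grey). The red bars gather at the low end, with a median of 5 CG against 13.

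The deposited values were log2 ratios of the 2 channels, taken as cocaine over saline from the order of the channels and dyes in the labels. That direction is likely but is not stated. The array medians lay between -2.68 and 0.26, so each array was centred on its own median, and a ratio of 0 below means a gene at the array median and not an unchanged gene. Between 10.9% and 55.4% of features per array were not measured, array 5 having the most, and the share was similar for the 71 probes described here (14.1% to 56.3%). On arrays 3 to 5 at least 85.8% of all measured ratios equalled a ratio of 2 whole numbers up to 30, to 3 decimals, against 34.0% and 38.2% on arrays 1 and 2. For the 71 probes the shares were 95%, 90.6% and 90.3% on arrays 3 to 5, and 34.4% on each of arrays 1 and 2. Ranks of the measured features correlated between pairs of arrays at 0.29 to 0.44. The table gives ratios without channel intensities, so neither the level of any gene nor the identity of the tissue could be read from it. Its markers could be compared only as ratios. Of 13 pyramidal neuron markers 1 was higher (Tubb3, a neuronal tubulin) and 12 did not pass the test. The 13 means ran from -1.10 to 2.41, with 3 below 0 and 10 above. The list's median ranged over arrays from 0.49 to 1.38.

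F2 had the lowest mean of all 11731 genes and features measured on 5 arrays, which would be the highest if the direction of the ratios were turned. It encodes prothrombin, the precursor of thrombin, and was read by 1 probe (feature 41158). Its centred log2 ratios were -2.03, -2.50, -4.27, -4.81 and -5.61 on arrays 1 to 5, with a mean of -3.84 ± 1.53 (SD, n = 5), 14.3-fold below the array median. All 5 arrays were low, arrays 3, 4 and 5 most of all. The F2 ratio lay at a percentile between 0.0253 and 7.10 of the measured features of its array.

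The deposited F2 ratios, before centring, were much closer to one another than the centred ones. They were -4.70, -5.02, -4.64, -5.59 and -5.35, a mean of -5.06 ± 0.41 (SD, n = 5). The cocaine channel was thus 24.9-fold to 48.2-fold dimmer than the saline channel if the likely direction holds. None of the 5 F2 ratios was a ratio of small whole numbers.

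C5ar1, the receptor for the complement fragment C5a on myeloid cells, stood 10th from the lowest of the 11731 means and 7th of the 9140 with a gene symbol (from the highest with the direction turned). Its 1 probe (feature 30709) gave -1.58, -3.03, -4.02, -1.50 and -2.98 on arrays 1 to 5, with a mean of -2.62 ± 1.07 (SD, n = 5), 6.17-fold below the array median. All 5 arrays were below the median, array 3 most and arrays 1 and 4 least. The deposited C5ar1 ratios had a mean of -3.84 ± 1.33 (SD, n = 5), and the percentile within the array ran from 0.175 to 16.4. Of its 5 ratios 1 was a ratio of small whole numbers.

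**Figure D2:**
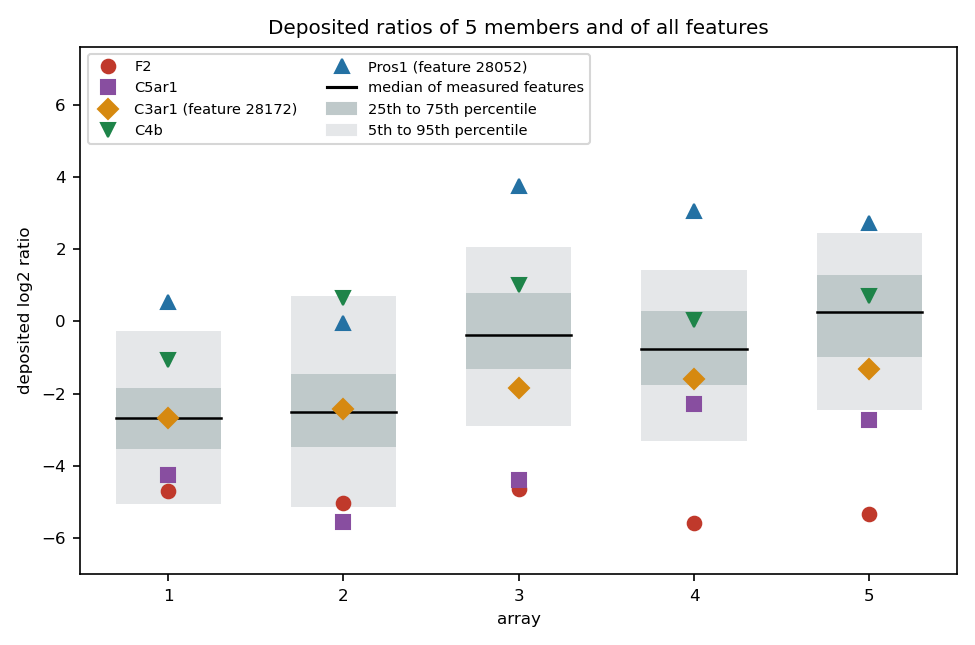
Deposited log2 ratios (vertical axis) on the 5 arrays (horizontal axis) for F2, C5ar1, C3ar1, C4b and Pros1, the last and C3ar1 by the probe measured on all 5 arrays. Black lines are array medians and the grey bands the 25th to 75th and 5th to 95th percentiles of measured features. F2 stays between -5.59 and -4.64 while the medians range from -2.68 to 0.26.

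Apart from F2 and C5ar1, 1 of the other 41 tested genes passed an adjusted p of 0.05 in the limma fit over all 28035 genes and features (Benjamini-Hochberg). It was Pros1, which was higher. None of the 41 was lower, and 40 did not pass. Over all 28035, 5.89% were higher and 1.16% lower. These arrays chose the list, so nothing is read from the comparison of its counts with those shares. Unadjusted limma p-values were under 0.05 for 9 of the 41, 6 of them with a mean below 0, against 23.8% of all 28035, so that count is near the background. The median of the mean log2 ratio was -0.39 over the 43 genes, against -0.14 over all 28035 and -0.037 over those with a gene symbol. Means were below 0 for 26 of 43 (60.5%), against 55.8% of all genes and features and 51.5% of genes with a symbol. That median and this count take in F2 and C5ar1, which chose the list, so nothing is read from them.

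Pros1 encodes protein S, the cofactor of activated protein C in shutting down coagulation and a ligand of the receptor kinases by which microglia take up dying cells. The average of its probes was 0.68, 2.47, 2.40, 3.82 and 2.46 on arrays 1 to 5. All 5 values were above the median, array 4 highest and array 1 lowest. The mean was 2.37 ± 0.49 (SE, n = 5), 5.15-fold above the array median, with an adjusted p of 0.014 in limma. The 2 Pros1 probes differed. Feature 28052, measured on 5 arrays, gave 3.21, 2.47, 4.12, 3.82 and 2.46, a mean of 3.22, while feature 15624, measured on arrays 1 and 3, gave -1.85 and 0.67. Feature 15624 thus lowered the average on arrays 1 and 3 only. Feature 28052 itself was highest on array 3 and lowest on array 5. Within arrays 1 and 2 alone the mean of the Pros1 average was 1.58, and within arrays 3 to 5 alone it was 2.89, with adjusted p of 0.22 and 0.16 in limma. Without array 2 the mean was 2.34 and the adjusted p 0.062 (limma), so the call was lost.

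**Figure D3:**
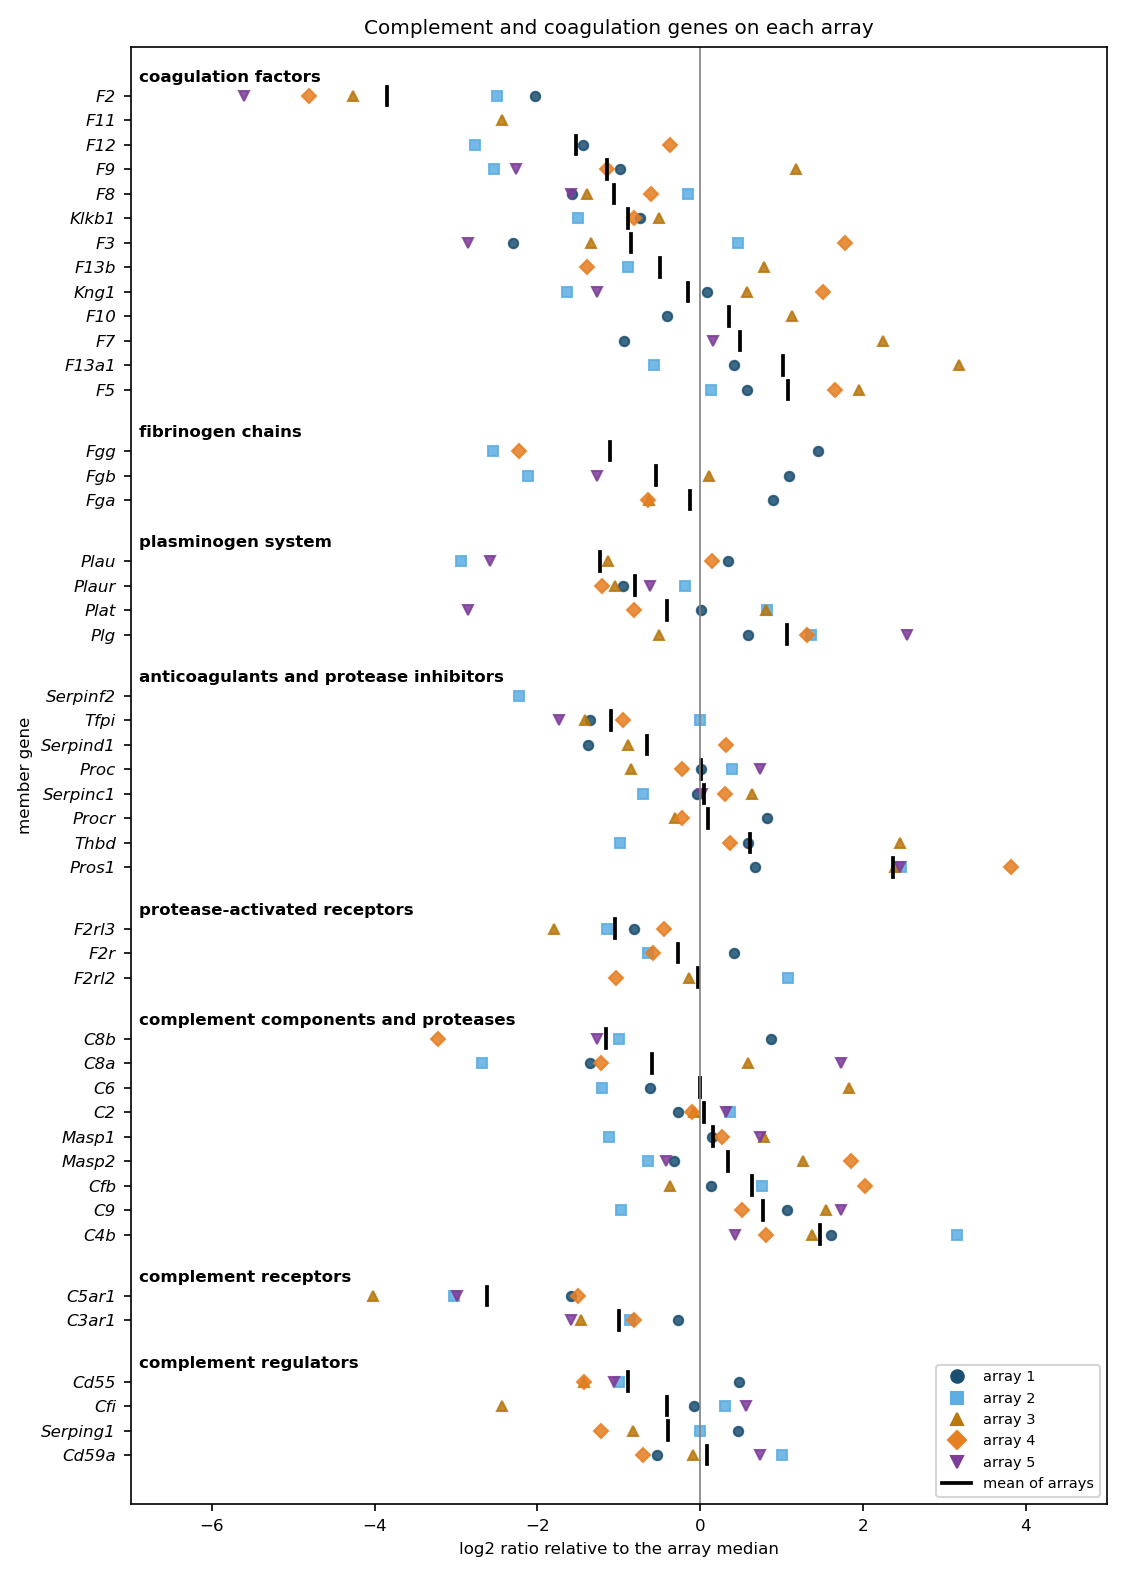
Centred log2 ratios (horizontal axis, 0 is the array median) of the 46 complement and coagulation genes with a probe, by role (vertical axis). Points are arrays, and black bars are means over the arrays on which a gene was measured. F2 and C5ar1 lie to the left on all 5 arrays and Pros1 to the right, while 27 of the 43 tested genes have means between -1 and 1.

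Among the coagulation factors, F2 included, 8 of 11 tested means were below 0, with a median of -0.85. Apart from F2, 10 did not pass the test. F8, the cofactor whose loss causes haemophilia A, gave -1.57, -0.15, -1.39, -0.60 and -1.59, below the median on all 5 arrays but near it on array 2. Its mean was -1.06 ± 0.44 (SE, n = 5; adjusted p 0.16, limma). F9, the protease that works with it, had a mean of -1.15, and F12, the contact factor that starts the intrinsic pathway, -1.52 over 3 arrays. Klkb1, plasma prekallikrein, was below the median on all 4 arrays that measured it, with a mean of -0.89. Factor V, the cofactor of prothrombin activation, ran the other way, with F5 values of 0.58, 0.14, 1.96 and 1.65 on arrays 1 to 4 and a mean of 1.08 (adjusted p 0.22, limma). F3, tissue factor, ranged from -2.85 to 1.78 between arrays, and F13a1, the fibrin cross-linking enzyme, from -0.56 to 3.18. F10 and F11 were measured on fewer than 3 arrays and were not tested, F10 at -0.41 and 1.13 and F11 at -2.44 on 1 array.

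The 3 fibrinogen chain genes lie next to one another on chromosome 3 and all had means below 0, of which none passed the test. Fgg, the gamma chain, gave 1.45, -2.54 and -2.22 on arrays 1, 2 and 4, so array 1 was high and the other 2 were low. Its mean was -1.11 ± 0.77 (SE, n = 3; adjusted p 0.41, limma). Fgb had a mean of -0.55 and Fga of -0.12, and array 1 was the highest for each of them too. The 4 genes of the plasminogen system had no call. Plau, the urokinase that activates plasminogen, gave 0.35, -2.94, -1.13, 0.15 and -2.58, arrays 2 and 5 being low, and a mean of -1.23 ± 0.54 (SE, n = 5; adjusted p 0.18, limma). Plaur, the urokinase receptor, gave -0.95, -0.18, -1.05, -1.21 and -0.61, below the median on all 5 arrays (mean -0.80 ± 0.42, SE, n = 5; adjusted p 0.27, limma), but its 2 probes had means of 0.36 and -1.97. Plg, plasminogen itself, had a mean of 1.06, and Plat, the tissue activator, of -0.40.

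Of 7 tested genes of anticoagulants and protease inhibitors, 5 had means above 0, and Pros1 alone passed. Proc, protein C, which needs protein S as its cofactor, had a mean of 0.013 with values from -0.85 to 0.74. Procr and Thbd, the endothelial receptor for protein C and thrombomodulin, had means of 0.099 and 0.61. Tfpi, the inhibitor of tissue factor, was read by 5 probes, the most of any gene here, whose means ran from -2.38 to 0.48 (gene mean -1.09 ± 0.44, SE, n = 5; adjusted p 0.15, limma). Serpinc1, antithrombin, had probe means of -0.998 and 1.36, and a gene mean of 0.046. Serpinf2, the plasmin inhibitor, was measured on 1 array, at -2.23. The 3 tested thrombin and protease receptor genes had means below 0, without a call. F2rl3, protease-activated receptor 4, gave -0.81, -1.15, -1.80 and -0.44 on arrays 1 to 4, low on each of them, with a mean of -1.05 ± 0.49 (SE, n = 4; adjusted p 0.22, limma). The values of F2r, the main thrombin receptor, and F2rl2 lay on both sides of 0, with means of -0.27 and -0.030.

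No tested complement component or protease passed the test, and 7 of the 9 means were above 0, with a median of 0.16. C4b, the thioester protein of the classical and lectin pathways, gave 1.61, 3.16, 1.37, 0.81 and 0.43 on arrays 1 to 5, above the median on all 5 and highest on array 2. Its mean was 1.48 ± 0.48 (SE, n = 5; adjusted p 0.078, limma). Its near-identical copy C4a was at -1.42 over 3 arrays, and whether the C4b probe tells the genes apart is unknown here. C2, the protease partner of C4b, had a mean of 0.047, and the neighbouring gene Cfb, its counterpart in the alternative pathway, of 0.64. The lectin pathway proteases Masp1 and Masp2 had means of 0.16 and 0.34. The pore genes went different ways: C9 had a mean of 0.78 and was above the median on 4 of 5 arrays, C6 was at 0.0040, and the neighbours C8a and C8b were at -0.59 and -1.15.

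Both complement receptor genes were below the median on all 5 arrays. C3ar1, the receptor for C3a, gave -0.28, -0.87, -1.47, -0.81 and -1.59, with a mean of -1.0 ± 0.43 (SE, n = 5; adjusted p 0.17, limma), a smaller distance than that of C5ar1. The C3ar1 probe measured on 5 arrays was at 0.015 and 0.098 on arrays 1 and 2, so the values below 0 there came from the other probe. C5ar2, the alternative C5a receptor, which is not among the 50 genes, had a mean of -1.39 over 4 arrays (adjusted p 0.16, limma). Of the regulators, Cd55, which breaks up C3 convertases on the cell surface, gave 0.48, -0.997, -1.43, -1.43 and -1.06, high on array 1 and low on the other 4 (mean -0.89 ± 0.45, SE, n = 5; adjusted p 0.25, limma). The Cd55 value on array 1 came from feature 32248 alone. Cd59a, the blocker of the pore, had a mean of 0.086, Cfi, the protease that inactivates C3b, of -0.41, and Serping1, the C1 inhibitor, of -0.39.

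Over the 23 genes measured on 5 arrays, 5 were below the median on every array (F2, F8, Plaur, C5ar1 and C3ar1) and 2 were above it on every array (Pros1 and C4b). Over all 11731 genes and features measured on 5 arrays, 6.61% were below on every array and 23% above. The first of those counts includes both genes that chose the list. Per array, the count of genes below the median ran from 21 of 42 (50%) on array 1 to 26 of 40 (65%) on array 2. Of all genes and features 50.8% and 50.6% were below it on those arrays. The per-array counts, too, include both genes that chose the list.

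Probes of the same gene often disagreed. Of 16 genes with more than 1 probe, 11 had probe means on both sides of 0. The probes of F3, F9, Plau, C3ar1 and Cd55 had means of 1 sign, all below 0, whereas those of Masp2 ran from -1.36 to 1.05. F2, C5ar1 and C4b rested on 1 probe each.

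**Figure D4:**
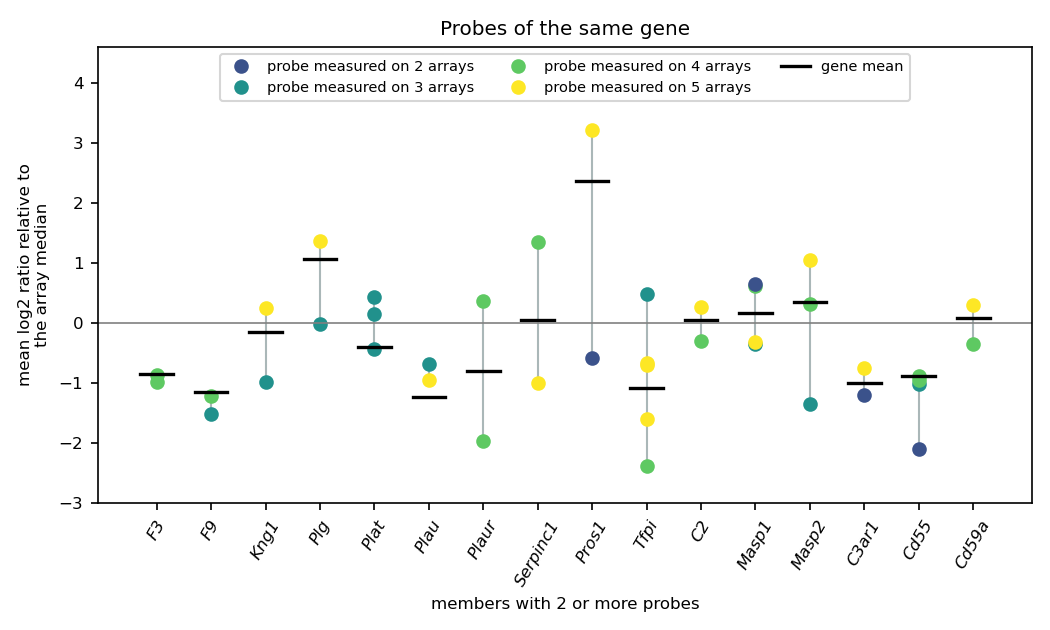
Mean centred log2 ratio (vertical axis) of each probe of the 16 genes with more than 1 probe (horizontal axis), coloured by the number of arrays that measured it. Black bars are the gene means, taken over arrays after averaging the probes measured on each, so a bar can lie outside its points. For 11 genes the probes lie on both sides of 0, and for Pros1 they lie at -0.59 and 3.22.

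Other genes of the same pathways were read from a wider list. Of 29 tested complement genes outside the 50, 3 were higher, 2 were lower and 24 did not pass, with a median of -0.069. Mbl1, a mannose-binding lectin that starts the lectin pathway, had a mean of 2.50 ± 0.49 (SE, n = 5; adjusted p 0.013, limma), and Clu, clusterin, a pore inhibitor abundant in brain, of 2.14 ± 0.43 (SE, n = 5; adjusted p 0.014). Cfp, properdin, which stabilises the alternative convertase, was at 2.01 (adjusted p 0.027, limma). The 2 lower genes were Fcnb, a ficolin of myeloid cells, at -2.81 ± 0.49 (SE, n = 4; adjusted p 0.012, limma) and Cd59b, the second pore blocker, at -1.96 (adjusted p 0.030, limma). The C1q chain genes, whose product tags synapses, had means of 0.040 (C1qa), 0.84 (C1qb) and -0.13 (C1qc), without a call. Of 27 tested coagulation and platelet genes outside the 50, 2 were higher and 25 did not pass: Gp1bb, a chain of the platelet receptor for von Willebrand factor, had a mean of 2.48 (adjusted p 0.014, limma) and Gas6, the relative of protein S, of 2.18 (adjusted p 0.023, limma). Gas6 gave 2.99, 3.94, 1.39, 2.14 and 0.44 and thus, like Pros1, lay above the median on all 5 arrays. So did 23% of all genes and features measured on 5 arrays. Gas6 was lowest on array 5. The Pros1 average was lowest on array 1, where feature 15624 entered it, but feature 28052 was lowest on array 5.

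Markers of cells that carry these genes were compared as ratios, and in bulk tissue fewer cells of a type and less RNA per cell cannot be told apart. Of 10 tested hepatocyte and plasma protein genes 1 was higher (Fgl1, at 1.91) and 9 did not pass. The list's median ranged over arrays from -0.043 to 1.06. The 10 means ran from -1.83 to 1.91, with 4 below 0 and 6 above. Of 6 tested red cell genes, the globins Hba-a1 and Hba-a2 were higher, both at 3.26, and Slc4a1, the membrane anion exchanger, was lower at -2.04 (adjusted p 0.012 and 0.032, limma). The other 3 did not pass. Of the 6 red cell means 4 were below 0 and 2 above. Whether the probes of Hba-a1 and Hba-a2 tell those genes apart is unknown here. None of 8 tested microglial genes passed. Of their means 3 were below 0 and 5 above, from -2.01 to 1.38, and the list's median ranged over arrays from -1.0 to 1.08. None of 6 blood myeloid genes passed, with medians from -1.44 to 2.06 over arrays. Their means ran from -1.03 to 0.66, with 5 below 0 and 1 above. Of 10 endothelial genes 1 was higher (Esam, at 1.99) and 9 did not pass. The endothelial means ran from -1.11 to 1.99, with 7 below 0 and 3 above. None of 4 choroid plexus genes passed, with 2 means below 0 and 2 above. The part of any of these cells in the ratios of F2, C5ar1 or Pros1 was not tested.

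F2 and C5ar1 kept a mean below 0 under all 19 other settings tried, F2 between -5.87 and -2.26 and C5ar1 between -4.66 and -2.28. These genes chose the list, and all 5 centred values of each were below 0. Leaving out or weighting arrays could therefore not turn their sign, and the ranges are a description only. Pros1 kept a mean above 0 under all 19, from 0.33 to 3.22, and passed the test in 11. Its 5 centred values were all above 0, so its sign too was fixed where arrays were only left out or weighted. C4b, in contrast, changed sign when arrays were centred on ribosomal protein genes, to -0.56, since that centring moved the median of all genes to -2.22. Without any centring the median of all genes was -1.52, and 13 of the 41 genes other than F2 and C5ar1 were called lower, against 28.9% of all 28035 genes and features. With ribosomal centring 30 of the 41 were called lower, against 70% of all. Both counts are near the shares over all genes.

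**Figure D5:**
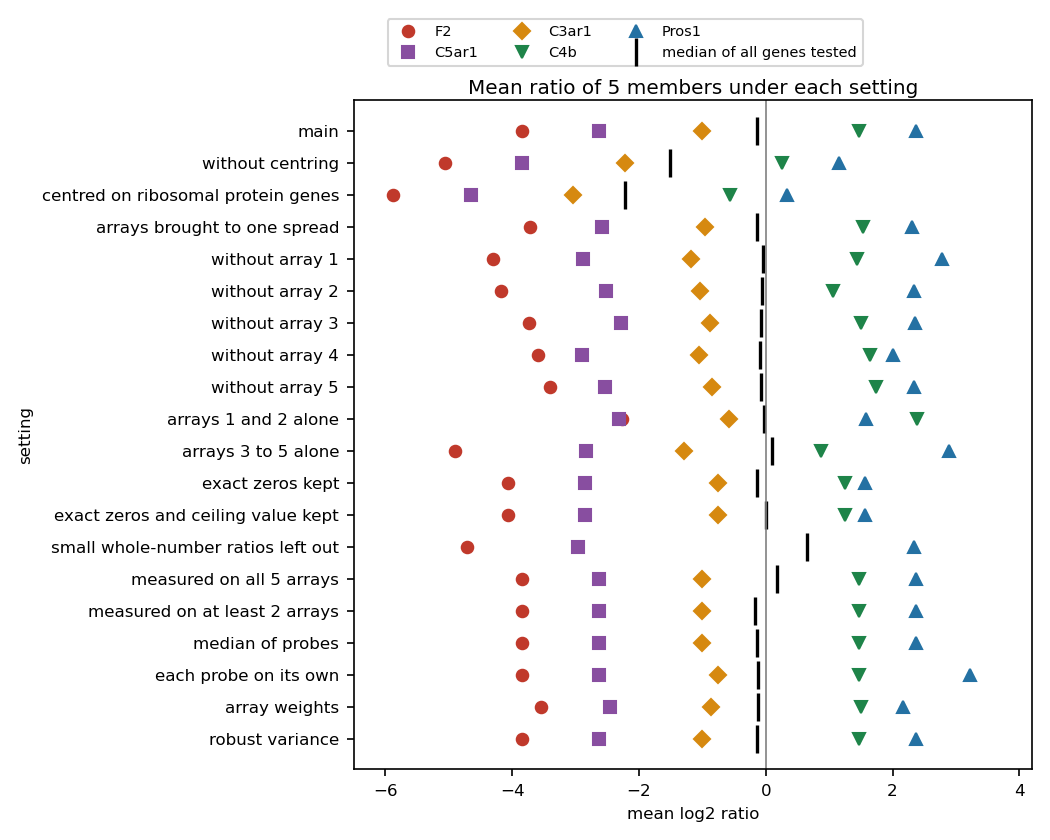
Mean log2 ratio (horizontal axis) of 5 genes under each of 20 settings (vertical axis), with the median of all genes tested under that setting as a black bar. F2 stays between -5.87 and -2.26 and Pros1 between 0.33 and 3.22. C4b crosses 0 when centred on ribosomal protein genes, and it and C3ar1 have no value without small whole-number ratios.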

How the data were processed

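Total RNA of laser-dissected P3 pyramidal layers was amplified and hybridised to 5 dual-colour arrays, per the labels. The deposited values were log2 ratios made by the authors, one per feature and array. The image reading, background correction and normalisation behind them are not given in the sources used here, and the base was inferred from recurring ratios of small whole numbers. Exact zeros and the ceiling of 16.61 were treated as not measured. Each array was centred on its median, and probes of 1 symbol were averaged within an array. Symbols came from the platform annotation: 32042 features had 1 symbol, 47 had several and 12201 had none. Of the symbols, 31906 features were matched to a current gene by gene ID. All columns were used (0 left out).

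Genes measured on at least 3 arrays were fitted with limma 3.58.1 (lmFit with an intercept, eBayes) in R 4.3.3, with Benjamini-Hochberg adjustment over 28035 genes and unnamed features and a threshold of 0.05. The script was tested on simulated data. Depth is unknown, and the 5 arrays limit the precision. Tables and figures were made with Python 3.11.15.

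The 50 genes, the pathway and marker lists and the settings were chosen with earlier results of these data known. Values on each array are given for F2 and C5ar1, for genes past the threshold or of 1 sign on all 5 arrays, and for the largest absolute mean of each role. F5 and Gas6, whose array values are also given, were chosen after their values were seen. Of the other pathway genes, those past the threshold are named. C5ar2, C4a and the C1q chains were added for their relation to listed genes. Alternatives covered centring, spread, each array left out, arrays 1 and 2 or 3 to 5 alone, zeros, the ceiling, small whole-number ratios, the number of arrays, probe averaging, array weights and robust variance.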

Additional observations from a re-analysis of the deposited data

Results flagged for a closer look

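Cd55 stood apart on array 1, where its centred log2 ratio of 0.476 was the highest of 5 and the nearest other value was -0.997. The array 1 value came from feature 32248 alone, the other Cd55 probes being exact zeros there, whereas the other arrays averaged several probes. Feature 32248 itself gave 0.476, -1.02, -2.04 and -1.22 on arrays 1 to 4. The gap was 0.775 of the whole range, above the limit for 5 values. It was 1 of 32 genes examined that had 4 or 5 values, and chance alone flags about 1 in 20.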

How the results depend on the processing

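The count of complement and coagulation genes called higher was 1 (Pros1) and became 0 without centring, with ribosomal centring, on arrays 1 and 2 alone, on arrays 3 to 5 alone, with exact zeros kept, with zeros and the ceiling kept, and with small whole-number ratios left out, when 4 of the genes were tested. It was 2 (Pros1 and C4b) among genes measured on all 5 arrays, where 16.5% of all were called higher. Of all genes and features 5.89% were higher in the main fit, 0.225% without centring and 0.139% with ribosomal centring. The share was 5.24% on arrays 1 and 2 alone, 0.163% with zeros kept and 0.555% with small ratios left out. On arrays 3 to 5 alone, and with zeros and the ceiling kept, it was 0%. Leaving out 1 array gave a count of 0 to 1, the 0 without array 2, against 0.232% to 6.24% of all. Of the 41 tested genes other than F2 and C5ar1, 0 were called lower by limma (6 at an unadjusted p under 0.05), 13 without centring and 30 with ribosomal centring, against 28.9% and 70% of all genes. Under those settings the median of all genes was -1.52 and -2.22. With F2 and C5ar1 counted in, the counts were 2, 15 and 32. Those genes chose the list, so counts that include them are a description only, and no test of them is read. The counts were 0 on arrays 1 and 2 alone, on arrays 3 to 5 alone, and with zeros and the ceiling kept. Of all genes and features 0.822%, 0% and 0% were called lower there. With 1 array left out, no gene of the list other than F2 and C5ar1 was called lower, against 0.0429% to 1.03% of all. The same held in the main fit. The mean of C5ar1 was -2.88 without array 1 and -2.52 without array 2, against -2.62. The median over the tested genes was -0.39 and became -1.74 without centring, -2.46 with ribosomal centring, -0.018 with zeros and the ceiling kept, and -1.30 with small ratios left out. The alternatives not named here left the count higher at 1, and those not named for the median left it between -0.70 and -0.11. Over all genes, calls fell to 54 higher and 10 lower without array 1, to 61 and 15 without array 2, and to 0 and 0 on arrays 3 to 5 alone, where limma gave 2722 unadjusted p-values under 0.05. The causes were not tested. Each ratio already sets a cocaine sample against the saline sample on the same array, so no further pairing was fitted. With no intensities, signal over background could not be weighed.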
